A study of Rattus norvegicus with 12 samples.

Results

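The TGF-beta ligands Tgfb1, Tgfb2 and Tgfb3, the receptors Tgfbr1, Tgfbr2 and Tgfbr3, and the latent TGF-beta binding proteins Ltbp1, Ltbp2, Ltbp3 and Ltbp4 were followed across 3 cartilage zones of the rat proximal tibia. These 10 members were chosen by gene symbol, with earlier results of these data known. The array held 14300 genes with a symbol of their own, and the brightest transcript cluster of each member was used. A cluster was paired with 9 of the 10 symbols, with 1 cluster for each, and Tgfbr2 was not analysed here. Articular cartilage was represented by its superficial zone (SZ) and its intermediate/deep zone (IDZ), and growth plate cartilage by its resting zone (RZ), with 4 Affymetrix Rat Gene 1.0 ST arrays for each. All tissue came from Sprague-Dawley rats at an age of 10 days, with no treatment named in the labels, when the secondary ossification center had begun to separate the articular from the growth plate cartilage. An SZ sample held 2 tibias of 1 animal, whereas an IDZ or RZ sample held 4 tibias pooled from 2 animals. An IDZ replicate shared its animals with the RZ replicate of that number, and the SZ animals were among those of replicates 3 and 4 of both other zones. The values are log2 expression after robust multi-array average (RMA), so that a difference of 1 is 2-fold, and levels of different genes are not compared because their probes differ.

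TGF-beta is made as a precursor whose propeptide stays wrapped around the ligand after it is cleaved. This latent complex is bound to an LTBP, which carries it to fibrillin and fibronectin fibres of the matrix, and integrins or proteases later release the ligand. The free ligand binds the type II receptor encoded by Tgfbr2, which recruits and phosphorylates the type I receptor encoded by Tgfbr1, and Smad2 and Smad3 then carry the signal to the nucleus. Betaglycan, encoded by Tgfbr3, is a co-receptor that presents ligand, Tgfb2 above all. In cartilage, TGF-beta is known to hold back terminal maturation of chondrocytes and to raise lubricin production at the joint surface.

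The arrays differed in spread and the zones in cell type markers. Array medians lay between 6.76 and 6.90 and interquartile ranges between 2.24 and 2.91. SZ replicate 4 lay at the upper end of the medians and at the lower end of the interquartile ranges, and it was the lowest SZ array for 8 of the 9 measured members. Of 9 measured cartilage markers, 8 were lower in SZ than in IDZ and in RZ at an adjusted p under 0.05 in limma, and none passed between IDZ and RZ. Over all clusters, 11.8% were higher and 11.2% lower in SZ than in IDZ by this rule. Against RZ, 10.0% were higher and 11.1% lower in SZ, and 2.78% were higher and 3.95% lower in IDZ. The mean level of the cartilage markers per array was 11.77 to 12.13 in SZ, 12.87 to 12.94 in IDZ and 12.82 to 12.98 in RZ. The cartilage collagen Col2a1 stood at 13.66 ± 0.05, 13.84 ± 0.06 and 13.75 ± 0.09 (SD, n = 4). It was the marker of the 9 that did not pass, at -0.19 for SZ minus IDZ (limma adjusted p = 0.11) and -0.09 for SZ minus RZ (limma adjusted p = 0.53). Of 5 joint surface markers, all were higher in SZ than in the other 2 zones, among them lubricin (Prg4) at 12.78 ± 0.19 in SZ, 10.31 ± 0.97 in IDZ and 5.68 ± 0.50 in RZ. Of 4 resting zone markers, 4 were lower in SZ than in IDZ and 3 lower in SZ than in RZ. Between IDZ and RZ the 4 split, the Wnt antagonist gene Sfrp5 (IDZ minus RZ -1.83) and Bmp3 (-1.44) being lower in IDZ and the BMP antagonist gene Grem1 (1.40) and Ucma (0.40) higher.

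Markers of other tissues moved with SZ. In SZ against IDZ, 6 of 7 endothelial, 8 of 8 macrophage, 8 of 8 tendon and fibrous tissue and 5 of 6 mural cell markers were higher in SZ. By the same rule, 11.8% of all clusters were higher in SZ. The other mural marker, Cspg4, was lower in SZ (-0.37). Mean levels per array were 8.46 to 9.00 in SZ, 6.56 to 6.94 in IDZ and 6.43 to 6.64 in RZ for the endothelial list. For the macrophage list they were 8.15 to 9.19, 6.57 to 6.60 and 6.26 to 6.95, and for the tendon and fibrous list 10.33 to 10.78, 7.98 to 8.44 and 7.09 to 7.43. The mural list read 9.65 to 10.06, 7.73 to 8.21 and 7.57 to 7.82. SZ was thus above both other zones on every array for all 4 lists, and IDZ above RZ on every array for the tendon and fibrous list. Among these markers, the mural gene Rgs5 was at 11.59 ± 0.28 in SZ, 7.68 ± 0.57 in IDZ and 7.09 ± 0.24 in RZ, and the macrophage receptor Csf1r at 9.80 ± 0.33, 7.37 ± 0.20 and 7.14 ± 0.33. Of 5 skeletal muscle markers, Tnnt3 alone passed in SZ against IDZ, lower in SZ (-1.58), and in IDZ against RZ, higher in IDZ (0.55). In SZ against RZ 2 were higher (Acta1 0.83 and Myl1 0.93) and 1 lower (Tnnt3 -1.03). None of 3 erythroid markers passed in any comparison. The part of these cells in the SZ values of the members and gene lists below was not tested. In tissue samples, fewer cells of a type and less RNA per cell cannot be told apart.

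**Figure D1:**
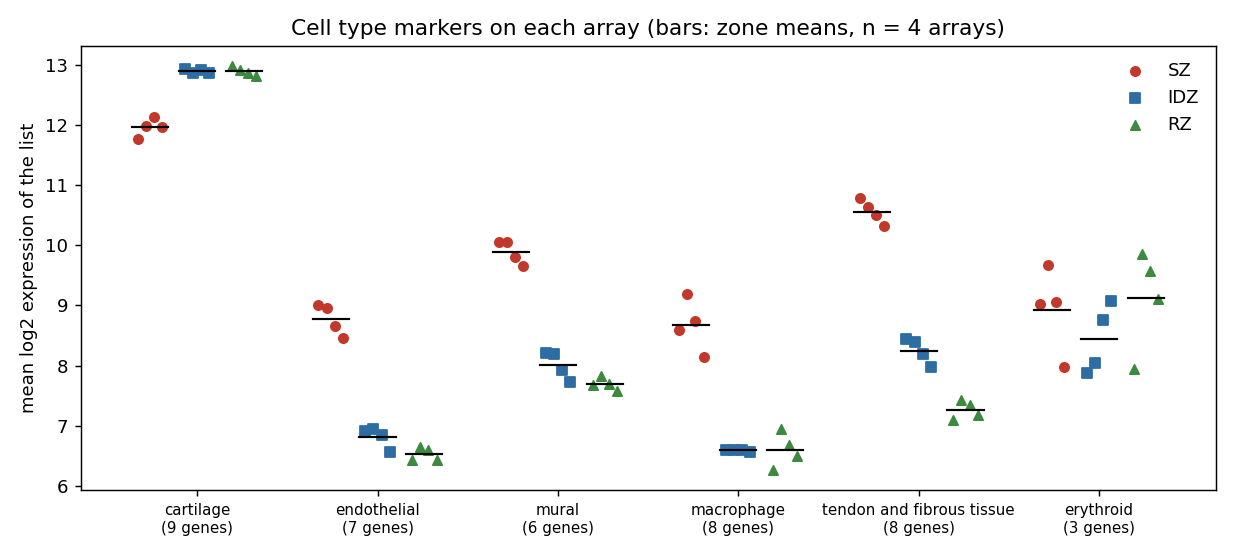
Mean log2 expression of 6 marker lists on each of the 12 arrays, by zone; each point is 1 array and each bar the mean of 4 arrays. SZ arrays lie below the others for the cartilage list, at 11.77 to 12.13, and above them for the endothelial, mural, macrophage and tendon and fibrous tissue lists, while the zones overlap for the erythroid list.

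In SZ against IDZ, 5 of the 9 measured members were higher in SZ, namely Tgfb3, Tgfbr1, Tgfbr3, Ltbp2 and Ltbp4, and none was higher in IDZ at an adjusted p under 0.05 in limma. Over all 27342 clusters, 11.8% were higher in SZ and 11.2% higher in IDZ by the same rule, and 17.0% of genes with a symbol were higher in SZ. With a minimum of 2-fold, 2 members remained, Tgfb3 and Ltbp4, beside 2.96% of all clusters. In IDZ against RZ, 5 of 9 members were higher in IDZ, namely Tgfb2, Tgfb3, Tgfbr3, Ltbp1 and Ltbp4, and none was higher in RZ, beside 2.78% of clusters higher in IDZ, 3.95% higher in RZ and 3.22% of genes higher in IDZ. Ltbp1 and Ltbp4 reached 2-fold there, as did 0.519% of all clusters. In SZ against RZ, 8 of 9 members were higher in SZ, Tgfb1 being the exception, and none was higher in RZ, beside 10.0% of clusters higher in SZ, 11.1% higher in RZ and 14.5% of genes higher in SZ. Tgfb3, Tgfbr3, Ltbp1 and Ltbp4 reached 2-fold, as did 3.19% of all clusters. The median difference of the members was 0.46 for SZ minus IDZ, 0.37 for IDZ minus RZ and 0.99 for SZ minus RZ. It was -0.08, 0.03 and -0.03 over all clusters and -0.03, 0.01 and -0.01 over genes with a symbol. The comparisons share arrays of a zone, so their counts are not independent of each other. Without SZ replicate 4 the count for SZ against IDZ was 7, with Tgfb2 at 0.31 (adjusted p = 0.04) and Ltbp3 at 0.23 (adjusted p = 0.045) passing as well.

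**Figure D2:**
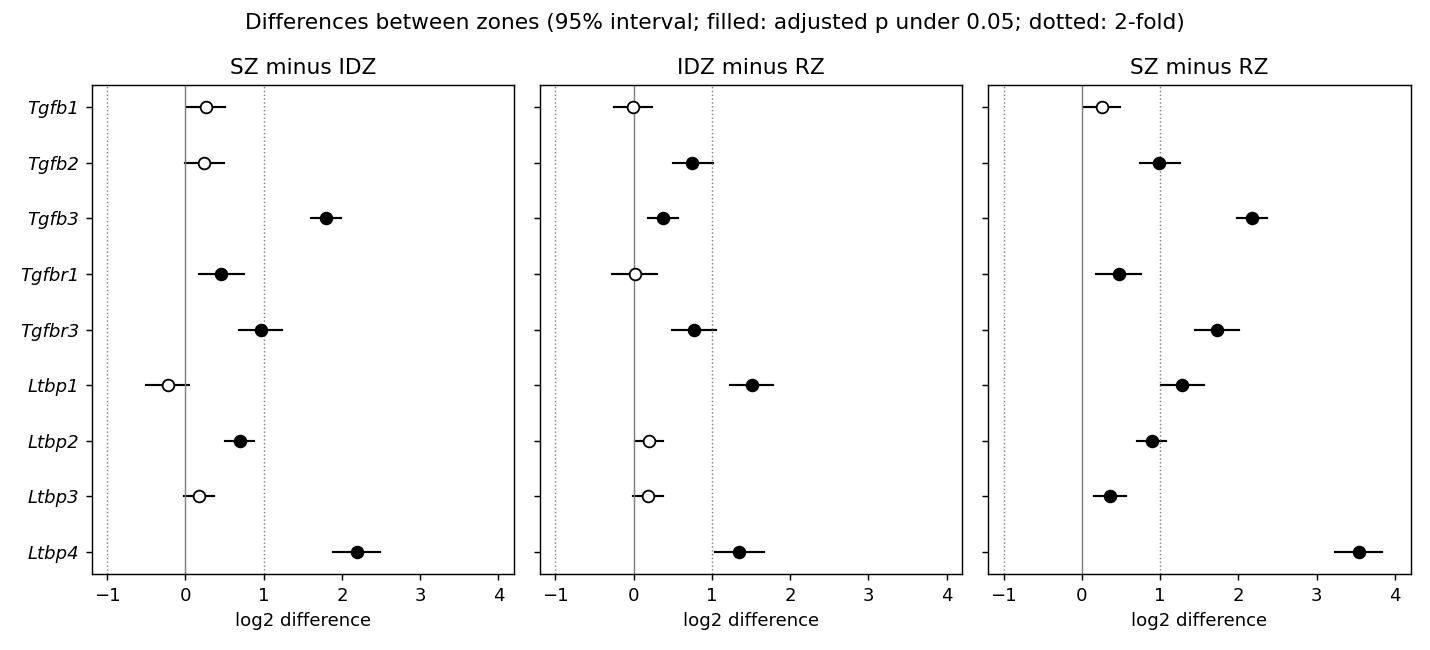
Log2 difference between zones for each measured member, with the 95% confidence interval of the limma fit over 12 arrays. Filled points have an adjusted p under 0.05 and dotted lines mark 2-fold. Every filled point lies to the right of 0, from 0.36 for Ltbp3 to 3.54 for Ltbp4 in SZ minus RZ, and Ltbp1 is the member whose point for SZ minus IDZ lies furthest to the left, at -0.22.

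The 300-base windows around the start of Tgfb3, Ltbp1 and Ltbp4 are printed because Tgfb3 and Ltbp4 had the widest ranges of zone means and Ltbp1 separated IDZ from RZ but not SZ from IDZ. Each runs from 250 bases before to 50 bases after the gene start in RefSeq on build GRCr8, and all lie on the minus strand. Capitals mark matches, on either strand, to the cyclic AMP response element TGACGTCA, to the AP-1 site TGANTCA, to the GC box GGGCGG, to the CCAAT box, to the Smad-binding letters CAGAC, or to the TATA box TATAAA. No match in these windows overlaps another.
Tgfb3, chr6:111456897-111457196: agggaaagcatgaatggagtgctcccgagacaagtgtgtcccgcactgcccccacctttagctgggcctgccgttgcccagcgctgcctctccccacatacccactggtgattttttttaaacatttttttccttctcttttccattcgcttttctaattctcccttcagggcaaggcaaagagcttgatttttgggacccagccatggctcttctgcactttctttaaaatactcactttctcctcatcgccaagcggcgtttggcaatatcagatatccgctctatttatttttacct
Ltbp1, chr6:26177252-26177551: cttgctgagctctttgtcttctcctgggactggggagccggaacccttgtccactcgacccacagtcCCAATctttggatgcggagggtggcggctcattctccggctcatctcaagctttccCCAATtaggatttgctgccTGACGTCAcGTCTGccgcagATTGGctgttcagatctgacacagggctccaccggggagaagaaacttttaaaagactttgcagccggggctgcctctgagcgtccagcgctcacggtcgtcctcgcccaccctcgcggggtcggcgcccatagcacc
Ltbp4, chr1:91759758-91760057: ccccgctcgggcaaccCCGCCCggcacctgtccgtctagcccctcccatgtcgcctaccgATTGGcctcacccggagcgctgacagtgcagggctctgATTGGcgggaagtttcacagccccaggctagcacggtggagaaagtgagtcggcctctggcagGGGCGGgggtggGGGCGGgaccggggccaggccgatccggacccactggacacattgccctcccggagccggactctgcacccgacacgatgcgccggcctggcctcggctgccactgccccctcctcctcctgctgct

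The Tgfb3 window had a GC content of 47.7% and held none of these motifs. The Ltbp1 window, at 60.0% GC, held the cyclic AMP response element starting at position -108 from the gene start, next to a reversed CAGAC match, and 3 CCAAT boxes. The Ltbp4 window, at 71.0% GC, held 3 GC boxes and 2 CCAAT boxes. Of all 33469 windows of 300 bases, 1.83% held the cyclic AMP response element, 7.33% the AP-1 site, 33.1% the GC box, 37.5% the CCAAT box, 50.1% CAGAC and 14.2% the TATA box. A match describes the letters of a window and is not evidence that a factor binds there.

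Tgfb3 (cluster 10891303), the isoform best known for tendon and palate formation, had the widest zonal difference of the ligands. It read 10.85, 10.82, 10.87 and 10.62 on the SZ arrays, 8.89, 8.97, 9.05 and 9.06 on the IDZ arrays, and 8.63, 8.62, 8.49 and 8.74 on the RZ arrays. The 3 zones did not overlap, and the lowest SZ array lay 1.55 above the highest IDZ array, while the gap between IDZ and RZ arrays was 0.15. Tgfb3 was 1.80 higher in SZ than in IDZ (SE 0.09, 3.48-fold, limma adjusted p = 6.4e-09) and 2.17 higher than in RZ (4.50-fold, adjusted p = 2.3e-10). IDZ exceeded RZ by 0.37 (SE 0.09, adjusted p = 0.023), a 1.29-fold difference. That smaller step did not pass with array medians subtracted, at 0.33 (adjusted p = 0.088), nor without IDZ replicate 2, 3 or 4 (0.38, 0.35 and 0.35) or RZ replicate 1, 2 or 3 (0.37, 0.37 and 0.33), with adjusted p of 0.058 to 0.079.

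Tgfb2 (cluster 10770577), the isoform most dependent on betaglycan, was high in both articular zones and low in RZ. It read 9.80, 10.02, 10.26 and 9.74 in SZ, 9.66, 9.67, 9.69 and 9.84 in IDZ, and 9.02, 9.13, 8.93 and 8.76 in RZ. All 8 articular arrays lay above all 4 RZ arrays, with SZ and IDZ overlapping. IDZ exceeded RZ by 0.75 (SE 0.12, 1.69-fold, limma adjusted p = 9.6e-04) and SZ exceeded RZ by 0.99 (1.99-fold, adjusted p = 1.4e-05). SZ minus IDZ was 0.24 (95% confidence interval -0.01 to 0.49, adjusted p = 0.17), and it was 0.31 (adjusted p = 0.04) without SZ replicate 4 but 0.14 (adjusted p = 0.45) without SZ replicate 3.

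Tgfb1 (cluster 10705213), the isoform most abundant in bone matrix and platelets, passed in none of the 3 comparisons. It read 10.26, 10.16, 10.02 and 10.04 in SZ, 9.63, 9.74, 9.99 and 10.08 in IDZ, and 9.89, 10.02, 9.72 and 9.84 in RZ, so that the zones overlapped. SZ minus IDZ was 0.26 (95% confidence interval 0.02 to 0.50, limma adjusted p = 0.11) and SZ minus RZ was 0.26 (interval 0.02 to 0.49, adjusted p = 0.14). IDZ minus RZ was -0.01 (interval -0.25 to 0.23), which bounds a difference between these zones at less than 2-fold in either direction.

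**Figure D3:**
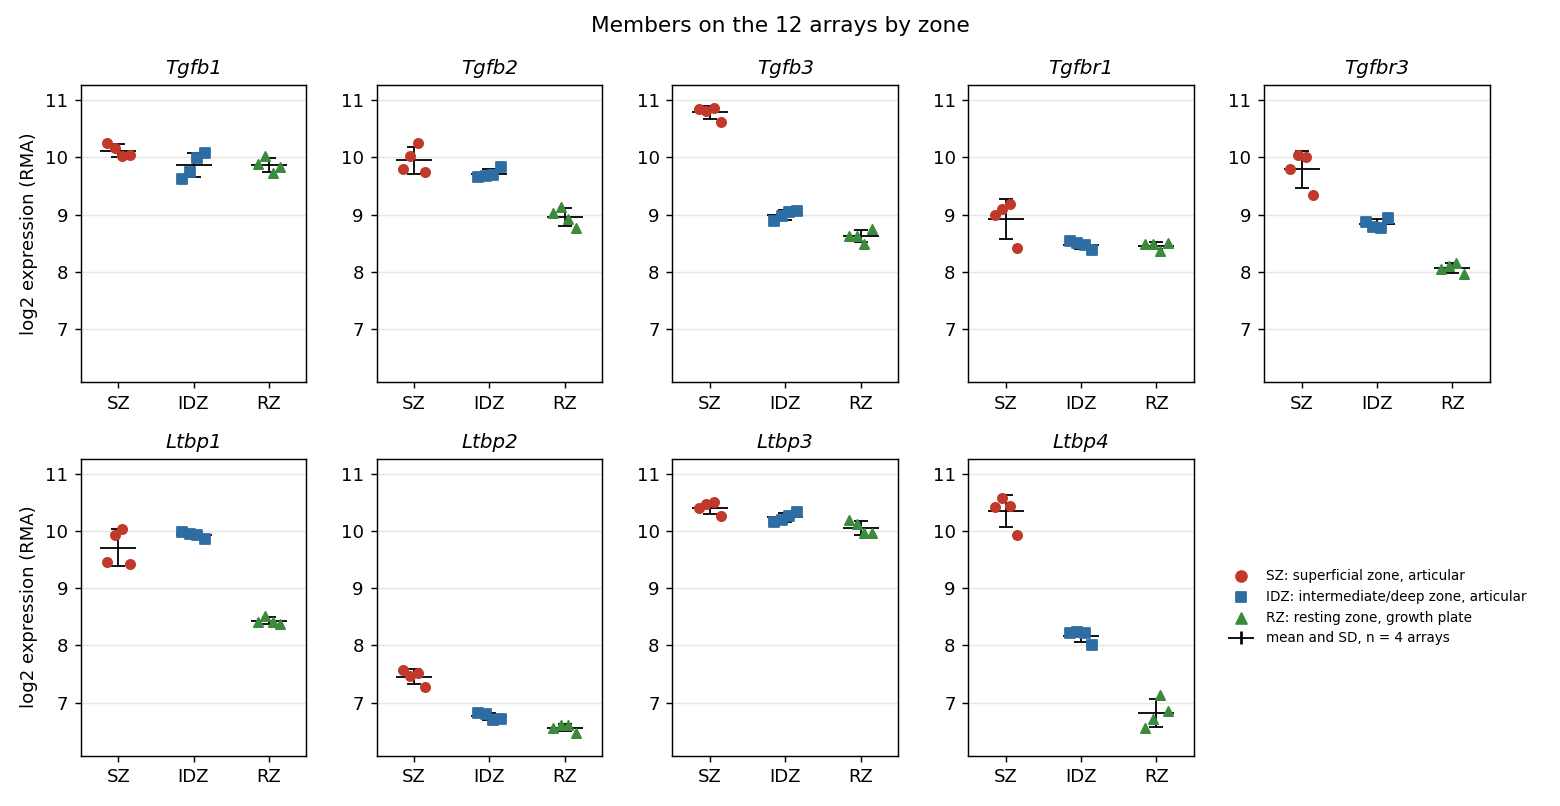
Log2 expression of the 9 measured members on each of the 12 arrays, with the mean and SD of 4 arrays per zone. Tgfb3 and Ltbp4 stand clear of the other zones in SZ, Ltbp1 and Tgfb2 separate the articular zones from RZ, and Tgfb1 overlaps in all zones, with means of 10.12, 9.86 and 9.87.

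Differences between ligands on the same array were compared to see whether the isoforms moved apart, since each gene's probe response then cancels between zones. Tgfb3 minus Tgfb1 was 0.58, 0.66, 0.85 and 0.57 on the SZ arrays, -0.75, -0.77, -0.94 and -1.01 on the IDZ arrays and -1.26, -1.40, -1.22 and -1.11 on the RZ arrays. The mean of this difference was thus 1.54 higher in SZ than in IDZ and 0.38 higher in IDZ than in RZ. Each had an exact permutation p = 0.0286 (two-sided, 8 arrays), the smallest that 4 against 4 arrays allow, or 0.0343 after adjustment over the 18 tests of 6 pairs. Tgfb3 minus Tgfb2 was 1.56 higher in SZ than in IDZ and its IDZ minus RZ difference was -0.38, both at the same exact p. Tgfb2 minus Tgfb1 was -0.17 ± 0.30 in SZ, -0.15 ± 0.15 in IDZ and -0.91 ± 0.12 in RZ (SD, n = 4). Between SZ and IDZ this pair did not move apart beyond the spread of arrays (difference -0.02, exact permutation p = 0.886), while IDZ minus RZ was 0.76 at the smallest exact p. These tests treat the 8 arrays as exchangeable, although IDZ and RZ replicates of a number share animals. The SZ animals were also among those of the other zones, and an SZ array holds 1 animal where the others pool 2. Exact sign flips within the 4 shared animal pairs, which cannot go below p = 0.125, gave that value for 5 of the 6 pairs of members between IDZ and RZ, each moving the same way in 4 of 4 animal pairs. With an array left out, IDZ minus RZ no longer passed for Tgfb3 minus Tgfb1 without RZ replicate 2 (0.33) or for Tgfb3 minus Tgfb2 without IDZ replicate 1 (-0.36), 2 (-0.39) or 4 (-0.36), at adjusted exact permutation p of 0.069 to 0.073. The smallest exact permutation p for 3 against 4 arrays is 0.0286 as well. Without IDZ replicate 2 the pass of Tgfb3 minus Tgfb2 was lost although the difference was not smaller.

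**Figure D4:**
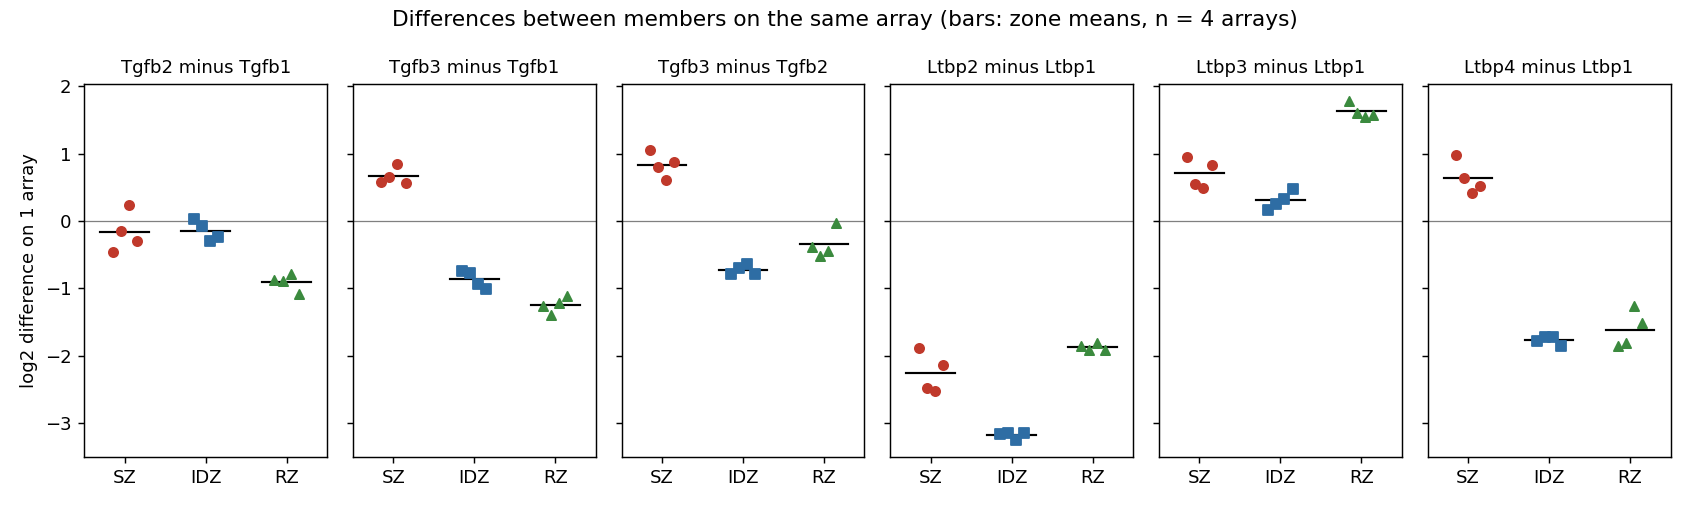
Log2 difference between 2 members on the same array, 4 arrays per zone, with bars at the zone means. Tgfb3 minus Tgfb1 and Ltbp4 minus Ltbp1 are above 0 on every SZ array and below 0 on every IDZ and RZ array, with the zero line set by the probes and only shifts between zones to be read.

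Tgfbr3 (cluster 10771070), the betaglycan gene, fell stepwise from SZ through IDZ to RZ. It read 9.79, 10.04, 10.01 and 9.34 in SZ, 8.87, 8.78, 8.76 and 8.94 in IDZ, and 8.05, 8.10, 8.15 and 7.96 in RZ, with no overlap between zones. SZ exceeded IDZ by 0.96 (SE 0.13, limma adjusted p = 6.8e-05), IDZ exceeded RZ by 0.77 (adjusted p = 0.0019) and SZ exceeded RZ by 1.73 (3.32-fold, adjusted p = 1.1e-07). Without SZ replicate 4, the lowest of its zone, SZ minus IDZ was 1.11.

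Tgfbr1 (cluster 10868923), the gene of the signalling type I receptor, differed little. It read 9.00, 9.09, 9.18 and 8.42 in SZ, 8.53, 8.50, 8.46 and 8.38 in IDZ, and 8.48, 8.48, 8.36 and 8.50 in RZ. SZ replicate 4 lay among the IDZ and RZ arrays and the other SZ arrays lay above them. SZ exceeded IDZ by 0.46 (SE 0.13, limma adjusted p = 0.023) and RZ by 0.47 (adjusted p = 0.02), and IDZ minus RZ was 0.01 (95% confidence interval -0.28 to 0.30). The SZ minus IDZ difference did not pass without SZ replicate 1 (0.43), 2 (0.40) or 3 (0.37) or IDZ replicate 3 (0.46) or 4 (0.43), at an adjusted p of 0.053 to 0.072, and without SZ replicate 4 it was 0.63 (adjusted p = 2.1e-05). The SZ minus RZ difference did not pass without SZ replicate 1 (0.44), 2 (0.41) or 3 (0.38) or RZ replicate 3 (0.44), at an adjusted p of 0.058 to 0.067, and without SZ replicate 4 it was 0.64.

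Ltbp4 (cluster 10720000), a latent binder also needed for elastic fibre assembly, had the widest range of zone means of all measured members. It read 10.43, 10.58, 10.45 and 9.94 in SZ, 8.21, 8.23, 8.22 and 8.00 in IDZ, and 6.55, 6.71, 7.14 and 6.86 in RZ. The arrays of the 3 zones did not overlap, and the SD was 0.28 in SZ, 0.11 in IDZ and 0.25 in RZ. The RZ mean, 6.82, was at the level of the median of cluster means, 6.83. SZ exceeded IDZ by 2.19 (SE 0.14, 4.55-fold, limma adjusted p = 5.2e-08), IDZ exceeded RZ by 1.35 (2.55-fold, adjusted p = 2.7e-05) and SZ exceeded RZ by 3.54 (11.6-fold, adjusted p = 1.8e-10).

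Ltbp1 (cluster 10888424), a widely expressed binder of latent TGF-beta, was high in both articular zones and lower in RZ. It read 9.46, 9.93, 10.04 and 9.42 in SZ, 9.99, 9.95, 9.93 and 9.86 in IDZ, and 8.41, 8.52, 8.41 and 8.38 in RZ. All articular arrays lay above all RZ arrays, and the IDZ arrays fell within the range of the SZ arrays. IDZ exceeded RZ by 1.51 (2.84-fold, limma adjusted p = 2.6e-06) and SZ exceeded RZ by 1.28 (2.43-fold, adjusted p = 2.1e-06). SZ minus IDZ was -0.22 (95% confidence interval -0.50 to 0.05, adjusted p = 0.24), and it was -0.14 without SZ replicate 1, -0.33 without SZ replicate 3 and -0.13 without SZ replicate 4, none of which passed. Between IDZ and RZ, none of 9 cartilage, 7 endothelial and 8 macrophage markers passed, while other lists moved. The tendon and fibrous tissue list had 3 of 8 higher in IDZ (Fap 3.83, Col3a1 1.97 and Dpt 1.78) and 1 lower (Thy1 -1.04). Over all clusters, 2.78% were higher in IDZ and 3.95% higher in RZ. The joint surface list had 2 of 5 higher (Prg4 4.62 and Creb5 0.91), the mural list 1 of 6 higher (Pdgfrb 0.80) and the hypertrophic list 2 of 5 lower (Alpl -1.59 and Ibsp -1.55). Their part in the difference of Ltbp1 was not tested.

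Ltbp2 (cluster 10891165), which binds fibrillin but not latent TGF-beta, was higher in SZ than in both other zones. It read 7.57, 7.46, 7.51 and 7.28 in SZ, 6.82, 6.80, 6.69 and 6.72 in IDZ, and 6.56, 6.60, 6.60 and 6.47 in RZ. SZ exceeded IDZ by 0.70 (limma adjusted p = 2.7e-05) and RZ by 0.89 (adjusted p = 1.6e-06), and IDZ minus RZ was 0.20 (adjusted p = 0.23) although the arrays of these zones did not overlap. The Ltbp2 means of 6.76 in IDZ and 6.56 in RZ lay below the median of cluster means, 6.83, and detection above background was not tested. Ltbp3 (cluster 10713123), a binder of latent TGF-beta known for its role in skeletal growth, had zone means of 10.42 ± 0.11, 10.24 ± 0.08 and 10.06 ± 0.12 (SD, n = 4) in SZ, IDZ and RZ. Only the difference between SZ and RZ passed, at 0.36 (limma adjusted p = 0.011), against 0.17 (adjusted p = 0.2) for SZ minus IDZ and 0.18 (adjusted p = 0.3) for IDZ minus RZ.

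The latent binders changed unequally on the same arrays. Ltbp4 minus Ltbp1 was 0.98, 0.64, 0.42 and 0.52 on the SZ arrays, -1.79, -1.72, -1.72 and -1.86 on the IDZ arrays and -1.85, -1.81, -1.27 and -1.52 on the RZ arrays. It was 2.41 higher in SZ than in IDZ (exact permutation p = 0.0286, 8 arrays, adjusted 0.0343), and IDZ minus RZ was -0.16 (exact permutation p = 0.371, adjusted 0.393). Ltbp3 minus Ltbp1 was 0.71 ± 0.22 in SZ, 0.31 ± 0.13 in IDZ and 1.63 ± 0.11 in RZ (SD, n = 4), and Ltbp2 minus Ltbp1 was -2.26 ± 0.30, -3.18 ± 0.05 and -1.87 ± 0.05. IDZ minus RZ was thus -1.32 and -1.31 for these pairs, each at the smallest exact p. Of the 18 tests, 15 passed an adjusted p under 0.05. Ltbp2 minus Ltbp1 between SZ and RZ did not, at -0.39 (exact permutation p = 0.0857, adjusted 0.0964), though it passed at -0.51 without SZ replicate 1 (adjusted exact permutation p = 0.034). Ltbp3 minus Ltbp1 between SZ and IDZ, at 0.40, did not pass without SZ replicate 1 (0.32) or 4 (0.35) or IDZ replicate 1 (0.35), 2 (0.38), 3 (0.41) or 4 (0.46), at adjusted exact permutation p of 0.064 to 0.13. Without IDZ replicate 3 or 4 the pass was lost although the difference was not smaller. The smallest exact permutation p for 3 against 4 arrays is 0.0286 as well.

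Over the 12 arrays, Ltbp4 was most like Olfml2b (Pearson r = 0.996), Vcan (0.995), Sema3a (0.994), Tm4sf1 (0.994) and Pdlim5 (0.994). Vcan encodes the proteoglycan versican and Sema3a a secreted guidance cue, and Vcan stood at 11.36, 8.45 and 6.48 in SZ, IDZ and RZ. Tgfb3 was most like Sparcl1, Lhfpl6, Or51e1 and Fzd8, each at r = 0.994, and Igsf10 at 0.993, where Fzd8 encodes a Wnt receptor with zone means of 10.68, 8.97 and 8.50. Among the members themselves, r with Tgfb3 was 0.978 for Ltbp2 and 0.964 for Ltbp4 but 0.509 for Ltbp1 and 0.698 for Tgfb1. These values describe 12 arrays that fall into 3 zones, so that genes which differ between the zones in the same order reach a high r.

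Genes that store or release latent TGF-beta were counted next. This list and those that follow were chosen with earlier results of these data known, so their counts only describe these genes. Of 15 measured genes of the storage and activation list, 9 were higher in SZ than in IDZ and 1 lower, beside 17.0% of genes higher in SZ. The median difference was 0.93, against -0.03 over genes with a symbol. The gelatinases Mmp9 (2.19, SE 0.42, limma adjusted p = 0.0012) and Mmp2 (1.91, SE 0.10, adjusted p = 1.2e-08), the crosslinking enzyme Tgm2 (1.71) and the urokinase gene Plau (1.54) had the largest differences. In real-time PCR by the authors on other animals, Mmp9 tended the same way between SZ and IDZ without reaching significance. Furin, the convertase that cleaves the TGF-beta precursor, went the other way, at 10.39 ± 0.17 in SZ, 11.03 ± 0.05 in IDZ and 11.34 ± 0.14 in RZ (SD, n = 4). Its SZ minus IDZ difference was -0.65 (SE 0.10, limma adjusted p = 2.5e-04). In IDZ against RZ, 3 of the 15 were higher in IDZ, beside 3.22% of genes, with a median of -0.01, namely the integrin subunits Itgb8 (0.78, adjusted p = 0.0016) and Itgb5 (0.32, adjusted p = 0.049) and Mmp2 (0.77). In SZ against RZ, 11 were higher, beside 14.5% of genes, and 1, Furin, was lower in SZ, with a median of 0.87 and Mmp2 at 2.68.

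Of 9 measured co-receptors and ligand binders, 4 were higher in SZ than in IDZ, beside 17.0% of genes, with a median of 0.24. Aspn, the gene of asporin, a small leucine-rich proteoglycan that binds TGF-beta, read 11.63 ± 0.52 in SZ, 7.03 ± 0.75 in IDZ and 5.94 ± 0.30 in RZ (SD, n = 4), and its difference between SZ and IDZ was 4.60 (SE 0.31, limma adjusted p = 7.1e-08). Acvrl1, a type I receptor best known in endothelium, was 0.80 higher in SZ (adjusted p = 3.1e-04), beside the endothelial markers given above. Tgfbrap1, whose protein binds the receptors, and Lrg1, a secreted modulator, were higher in SZ by 0.61 and 0.41. In IDZ against RZ the proteoglycan gene Bgn alone passed, at 0.37 (adjusted p = 0.013), beside 3.22% of genes higher in IDZ. Aspn had a larger difference there, 1.09 (SE 0.31), that did not pass (limma adjusted p = 0.051). In SZ against RZ 4 of the 9 passed, all higher in SZ, beside 14.5% of genes, with a median of 0.29.

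Of 13 measured Smads and their regulators, 2 were higher in SZ than in IDZ, a share close to the 17.0% of genes higher in SZ, with a median of 0.12. Smad2, Smad3 and Smad4 had differences of 0.03, -0.10 and 0.04 (SE 0.10, 0.09 and 0.11) that did not pass. Pmepa1, an inhibitor of TGF-beta signalling that the signal induces, was lowest in the middle zone, at 9.24 ± 0.13 in SZ, 8.49 ± 0.21 in IDZ and 9.25 ± 0.09 in RZ (SD, n = 4). It was 0.75 higher in SZ than in IDZ (limma adjusted p = 1.4e-04), and IDZ minus RZ was -0.75 (adjusted p = 5.7e-04). Tgif1, a corepressor of Smads, was lowest in IDZ as well, with SZ minus IDZ and IDZ minus RZ differences of 0.46 (adjusted p = 0.0012) and -0.70 (adjusted p = 1.4e-04). The inhibitory Smad gene Smad7 was 0.54 higher in IDZ than in RZ (adjusted p = 0.02) and 0.66 higher in SZ than in RZ (adjusted p = 0.0015). In SZ against RZ Smad7 was the only gene of the 13 to pass, beside 14.5% of genes higher in SZ. In IDZ against RZ, 1 was higher in IDZ, beside 3.22% of genes, and 2 were higher in RZ, beside 3.95% of all clusters.

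Of 21 measured genes on a list of genes known to respond to TGF-beta, 15 were higher in SZ than in IDZ, beside 17.0% of genes, and none lower, with a median of 0.83. The matrix genes Postn (3.10, limma adjusted p = 1.6e-08), Col1a1 (1.93), Col1a2 (1.92) and Col3a1 (1.92) led the list. The 6 that did not pass were Smad7 (0.12), Tgfbi (0.04), Ccn2 (0.03), Cdkn2b (-0.21), Sphk1 (-0.04) and Lox (0.10). Col1a1 and Col3a1 also stand on the tendon and fibrous tissue list above. Of the 25 genes listed, measured or not, 7 belong to another list used here. In IDZ against RZ, 5 were higher in IDZ, beside 3.22% of genes, and 1, Pmepa1, lower, with a median of 0.20, led by Postn (2.46), Col3a1 (1.97), Col1a2 (1.35) and the transcription factor gene Bhlhe40 (0.72). In SZ against RZ 16 were higher, beside 14.5% of genes, and none lower in SZ, with a median of 0.70. Between IDZ and RZ the tendon and fibrous tissue markers moved as well, 3 of 8 being higher in IDZ and 1, Thy1, lower, and their part in the list was not tested.

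**Figure D5:**
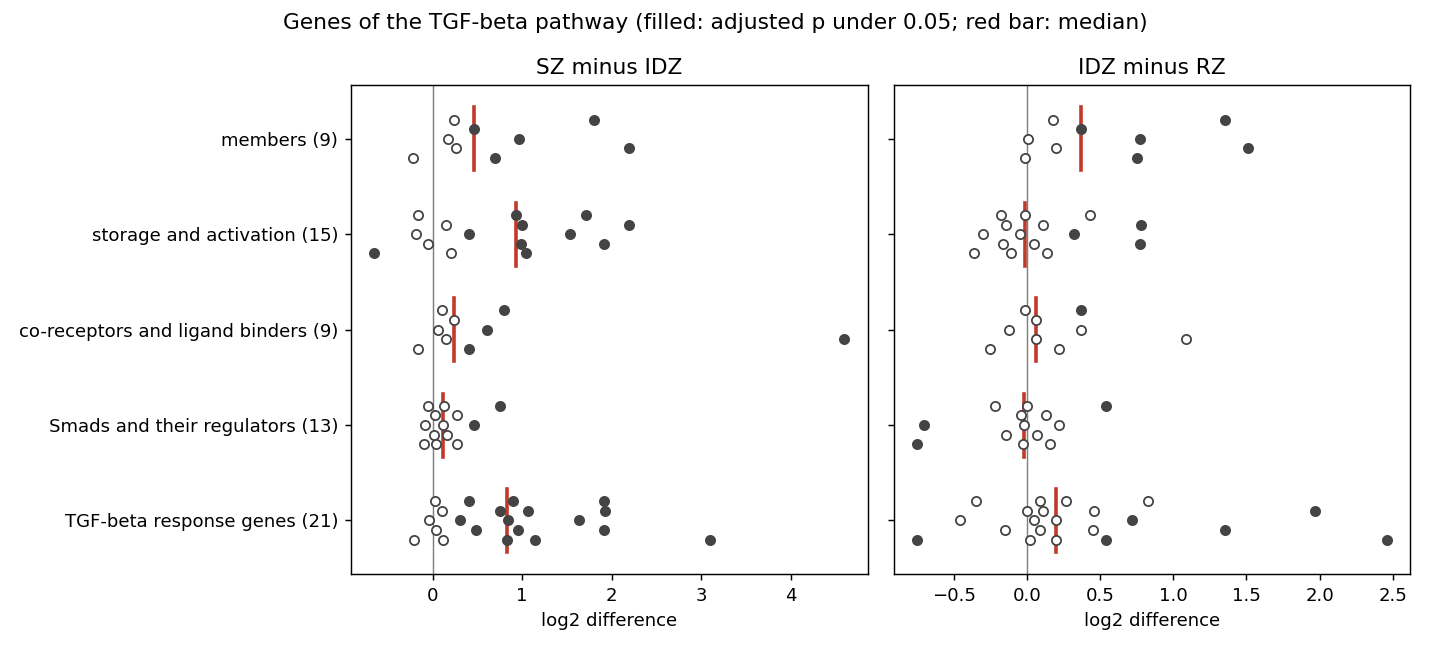
Log2 difference between SZ and IDZ and between IDZ and RZ for the measured members and the genes of 4 pathway lists; each point is 1 gene, filled where the limma adjusted p is under 0.05, and red bars are list medians. Points of the storage and response lists lie mostly right of 0 for SZ minus IDZ, with medians of 0.93 and 0.83. For IDZ minus RZ their medians are -0.01 and 0.20, and points of the response list run from -0.75 (Pmepa1) to 2.46 (Postn).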

How the data were processed

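RNA of 12 dissected zone samples was labelled and hybridised by the authors, who made the deposited log2 values by RMA (background adjustment, quantile normalization, median polish) in Partek 6.6, per the labels. No other normalization was applied here, and the genome build behind the probe annotation is not given in the sources used here. Of 27342 clusters, 15068 had 1 symbol, and no cluster was paired with Tgfbr2.

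The fit was made in limma 3.58.1 under R 4.3.3, with a mean for each zone, contrasts of zones, moderated variances and Benjamini-Hochberg adjustment over all clusters within a comparison, at 0.05, with a 2-fold minimum counted beside it. Members and lists were chosen with earlier results of these data known. Named were all members, up to 4 genes per list and comparison with the largest difference among those called, up to 2 markers per list by level and the 5 genes most correlated with each of the 2 members of widest range. Furin, Smad2 to Smad4 and the response genes that did not pass between SZ and IDZ were chosen after their values were seen. So were the markers that passed between IDZ and RZ or are named for SZ. Pairs of members were compared by two-sided exact permutation. Replicates were separate RNA samples, and their number limits the precision. By the labels, same-numbered IDZ and RZ replicates came from the same animals. Their deviations from zone means correlated at 0.02, 0.02, 0.03 and 0.21, and the fit had no block. The limma step was tested on simulated data. Alternatives were a block by animals, trended or plain variances, 2 zones alone, no dim clusters, 3 scalings, each array left out and, chosen after seeing the data, sign flips within animal pairs. Promoter windows came from RefSeq. Python 3.11.15, pandas 2.3.3, scipy 1.17.1 and matplotlib 3.10.9 were used.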

Additional observations from a re-analysis of the deposited data

Results flagged for a closer look

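In 45 groups of 4 arrays (9 members and 6 pairs of members in 3 zones), the highest or lowest array was set apart from the others beyond the critical value of Dixon's ratio of gap to range, 0.829, in 3, where about 1 in 20 groups is set apart by chance. Tgfb2 in IDZ replicate 4 was the highest of its zone at 9.84, with a ratio of 0.855. Tgfbr1 in RZ replicate 3 was the lowest of its zone at 8.36, with a ratio of 0.836. Ltbp4 in IDZ replicate 4 was the lowest of its zone at 8.00, with a ratio of 0.888. IDZ replicate 4 also had the lowest IDZ mean of the tendon and fibrous tissue (7.98), joint surface (7.56), endothelial (6.56) and mural (7.73) markers, among others. Its means of the resting zone (11.13) and erythroid (9.07) markers were the highest in IDZ.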

How the results depend on the processing

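With the 2-fold minimum the counts of members called were 2 for SZ minus IDZ, 2 for IDZ minus RZ and 4 for SZ minus RZ, and with single arrays left out they ranged from 4 to 7, 4 to 5 and 7 to 8. The random replicate block by animals left the counts at 5, 5 and 8, and a fixed replicate block on the IDZ and RZ arrays alone left 5, with no member call changed. Apart from leaving out arrays, 215 member values kept direction and call, 6 lost the call, 1 gained it and 3 changed sign, all of them close to 0. Tgfbr1 for IDZ minus RZ was -0.03 with array medians subtracted and -0.0092 with the mean of middle clusters subtracted, and Tgfb1 was 0.08 after a second quantile normalization, which also brought Ltbp3 to 0.27 (limma adjusted p = 0.029). Calls were lost for Tgfbr1 with plain variances (adjusted p = 0.055 for SZ minus IDZ and 0.052 for SZ minus RZ), with 2 zones alone (0.061 and 0.062) and, for SZ minus RZ, with array medians subtracted (0.055), and for Tgfb3 between IDZ and RZ with array medians subtracted. The cause was not tested. With single arrays left out, the differences that changed sign ranged from -0.08 to 0.07 for Tgfb1 and -0.02 to 0.04 for Tgfbr1 in IDZ minus RZ, and from -0.16 to 0.08 for Tgfb2 minus Tgfb1 in SZ minus IDZ. With an array left out, 4 to 5 pairs of members passed the exact permutation test for SZ minus IDZ, 4 to 5 for IDZ minus RZ and 4 to 6 for SZ minus RZ, with 5 over all arrays in each. Tgfb2 minus Tgfb1 for SZ minus RZ did not pass without RZ replicate 4, at 0.68. Sign flips within shared animal pairs, a replicate block chosen after seeing the data, cannot pass 0.05. No value came from using every cluster of a gene by itself, since each measured member had 1.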
